A study of Mus musculus with 3 samples.

Results

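This account covers 5 genes of the ephrin and Eph system, the ephrin-B ligand genes Efnb1 and Efnb2 and the Eph receptor genes Ephb4, Epha4 and Ephb1, in single-cell RNA sequencing of sorted cells from the mouse small intestine. They were taken by gene symbol from 32285 genes, and each symbol had 1 row. Droplet libraries with 3′ chemistry were made from 3 samples of wild-type C57Bl/6 females aged 9 to 10 weeks. Each library pooled 4 animals, and the duodenum was left out. EDTA and DTT were used to strip the epithelium before Liberase TL and DNase I digested the remainder, and live cells without CD45 and with CD31 and podoplanin were sorted. No group was treated, so the comparisons lie between kinds of cell within libraries. P-values measure how far the difference within a library varied over these 3 libraries. The labels do not say whether the libraries came from separate animals, so that variation may be technical.

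Ephrins and Eph receptors signal between touching cells. Ephrin-B ligands span the membrane, and binding to an Eph receptor tyrosine kinase on a neighbouring cell sends a signal into both cells. In blood vessels ephrin-B2 is the classical marker of arterial and EphB4 of venous endothelium, and in the mouse both genes are needed for the shaping of lymphatic vessels and their valves. EphA4 is unusual among Eph receptors in binding ligands of the ephrin-A and the ephrin-B class.

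Gene positions are from GENCODE for GRCm38, the build that mm10 names. All 5 genes are protein coding. Efnb1 lies on chromosome X, 99136130 to 99148991 on the plus strand, and Efnb2 on chromosome 8, 8617434 to 8661242 on the minus strand. Ephb4 lies on chromosome 5, 137350109 to 137378669 (plus), Epha4 on chromosome 1, 77367185 to 77515088 (minus), and Ephb1 on chromosome 9, 101922128 to 102354693 (minus). The 250 bases before the RefSeq start of 4 of the genes are shown because they are the members found in lymphatic cells, where Efnb2 moved against Efnb1 and Ephb1 while Ephb4 stayed level. The sequences are RefSeq's for GRCm38.p6, read 5′ to 3′ on the gene's strand. For Efnb1 the RefSeq start lies upstream of the GENCODE start given above, so that window ends short of it, and the other 3 windows abut theirs. Capitals mark matches on either strand to CCAAT, the CCAAT box, to GGGCGG, the GC box, and to TGGGAA, the core bound by the Notch pathway factor RBPJ. No 2 matches overlap.
Efnb1, chrX:99135811-99136060, plus strand: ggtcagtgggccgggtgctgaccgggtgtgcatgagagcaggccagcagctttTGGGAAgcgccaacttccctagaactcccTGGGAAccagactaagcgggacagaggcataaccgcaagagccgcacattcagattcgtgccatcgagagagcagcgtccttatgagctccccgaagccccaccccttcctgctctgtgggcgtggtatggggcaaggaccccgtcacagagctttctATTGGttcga
Efnb2, chr8:8661243-8661492, minus strand: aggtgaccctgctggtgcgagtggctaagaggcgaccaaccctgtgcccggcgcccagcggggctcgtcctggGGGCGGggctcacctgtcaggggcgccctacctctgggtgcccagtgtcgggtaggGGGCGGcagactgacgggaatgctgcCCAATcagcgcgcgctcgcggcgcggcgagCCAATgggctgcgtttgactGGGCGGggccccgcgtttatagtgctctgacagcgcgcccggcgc
Ephb4, chr5:137349859-137350108, plus strand: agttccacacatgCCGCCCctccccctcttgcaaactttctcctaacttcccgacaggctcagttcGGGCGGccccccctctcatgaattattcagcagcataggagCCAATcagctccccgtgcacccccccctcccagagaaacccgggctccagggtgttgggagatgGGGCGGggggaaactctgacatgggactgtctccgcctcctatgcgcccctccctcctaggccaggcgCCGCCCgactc
Ephb1, chr9:102354694-102354943, minus strand: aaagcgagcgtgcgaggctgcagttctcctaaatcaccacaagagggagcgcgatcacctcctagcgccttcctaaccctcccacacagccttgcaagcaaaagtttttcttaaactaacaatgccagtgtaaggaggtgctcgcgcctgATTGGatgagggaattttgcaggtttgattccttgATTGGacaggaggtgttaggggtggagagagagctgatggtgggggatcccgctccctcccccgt
The Efnb2 window holds 3 GC boxes and 2 CCAAT boxes, and the Ephb4 window holds 4 GC boxes and 1 CCAAT box. The Efnb1 window holds 2 copies of TGGGAA and 1 CCAAT box, and the Ephb1 window 2 CCAAT boxes, both read on the other strand. Among 32851 RefSeq windows of the same length, 33.8% hold a CCAAT box, 32.7% a GC box and 21.6% TGGGAA. G and C make up 72.0% of the Efnb2 window, 64.0% of Ephb4, 60.0% of Efnb1 and 54.0% of Ephb1, against a median of 52.4%. The matches describe letters in these windows and were set against no measurement of binding.

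The files held 58857545, 69231794 and 74571090 unique molecular identifiers (UMIs, each standing for 1 captured RNA molecule) in libraries 1, 2 and 3. After filtering, 6359, 6707 and 9468 barcodes were analysed, with medians of 7979, 7264 and 6698 UMIs. Lymphatic endothelial cells (LEC) were barcodes with at least 1 Prox1 UMI, the lymphatic master regulator, and at least 5 Lyve1 UMIs. They numbered 5689, 5001 and 8264. Blood endothelial cells (BEC), with at least 3 Flt1 and 0 Prox1 UMIs, numbered 38, 86 and 82. Mural cells, the smooth muscle cells and pericytes of vessel walls, numbered 25, 157 and 66, and epithelial cells 115, 392 and 107. Fibroblasts numbered 432 in all, myeloid cells 204, T or innate lymphoid cells 128 and B or plasma cells 65. The sort and the gates both bear on these numbers. The sort took cells with CD31 and podoplanin, so the gates other than LEC hold the barcodes that passed it. Levels in these other gates may not stand for such cells in the gut at large.

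Defining genes were checked as a description, since some of them set the gates. Of the 7 lymphatic markers, 6 had UMIs in LEC and Mmrn1 had none. They summed to 17111 to 19510 counts per 1000000 UMIs of the summed cells (CPM) in LEC and 261 to 316 CPM in BEC. The blood endothelial list summed to 1524 to 1688 CPM in LEC, against 4999 to 10531 CPM in BEC. The BEC sums were mixed. All 10 mural markers had UMIs there, summing to 2073, 6822 and 10077 CPM against 45855, 50081 and 29440 CPM in the mural gate, and 5, 22 and 49 BEC barcodes held enough markers to meet a second gate as well. Library 2 stood apart within LEC, with 1362 CPM of epithelial markers against 158 and 220 CPM in libraries 1 and 3, and with 1083 CPM of mural markers against 312 and 339 CPM. Results were therefore also computed without barcodes holding a second gate's markers, a choice made after the data were seen. Libraries shared 62 barcode sequences in all, and their LEC sums differed well beyond sampling noise, so none was a copy of another.

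Among the ligands, Efnb2 RNA was highest in blood endothelium and Efnb1 RNA in epithelium. Efnb2 stood at 149 ± 53.7 CPM in BEC (SD, n = 3 libraries for all levels), followed by LEC at 93.0 ± 11.4, epithelium at 47.3 ± 12.6, fibroblasts at 46.8 ± 5.98 and mural cells at 11.8 ± 10.6 CPM. Epithelium and fibroblasts did not differ in Efnb2 beyond their spread. Efnb1 stood at 81.9 ± 6.65 CPM in epithelium, 58.4 ± 5.77 in fibroblasts, 45.3 ± 6.18 in LEC, 44.8 ± 9.89 in BEC and 25.1 ± 8.54 CPM in mural cells. LEC and BEC were alike in Efnb1 within their spread. In the myeloid, T or innate lymphoid and B or plasma gates, Efnb1 averaged 1.34 to 6.04 CPM and Efnb2 0 to 0.994 CPM.

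Of the receptors, Ephb4 and Ephb1 were highest in LEC, and Epha4 in BEC. Ephb4 had 152 ± 14.4 CPM in LEC, 83.3 ± 22.3 in BEC, 25.2 ± 4.70 in mural cells, 18.7 ± 6.17 in fibroblasts and 16.4 ± 3.36 CPM in epithelium, and the last 3 overlapped. Ephb1 had 56.3 ± 13.4 CPM in LEC and 11.2 ± 4.89 CPM in BEC. Every other gate was at or below 1.08 CPM of Ephb1. Epha4 had 53.2 ± 12.1 CPM in BEC, 17.9 ± 7.59 in mural cells, 12.0 ± 4.51 in fibroblasts, 3.25 ± 0.714 in epithelium and 1.08 ± 0.703 CPM in LEC, where mural cells and fibroblasts overlapped. It had 0 UMIs in the myeloid, T or innate lymphoid and B or plasma gates. LEC thus held the most Ephb4 and Ephb1 and, outside the immune gates, the least Epha4.

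**Figure D1:**
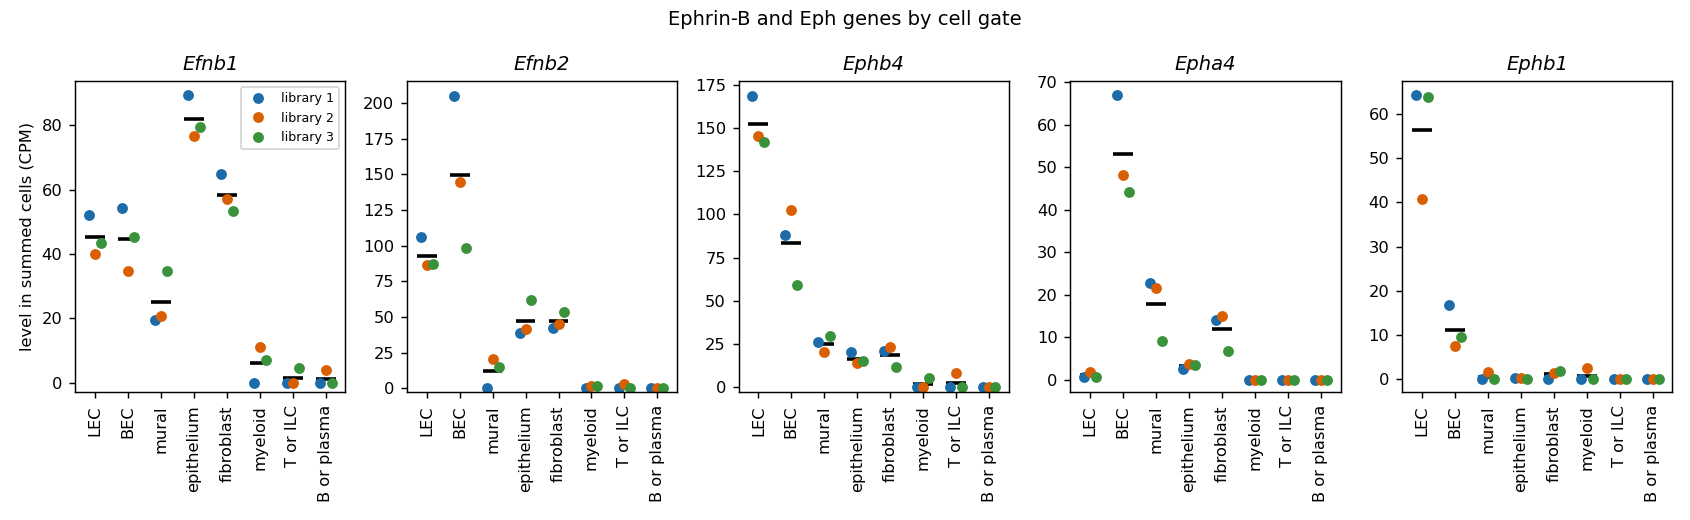
Level of each member in CPM of the summed cells (vertical axes, linear) in 8 gates (horizontal axes), with 1 point per library and a bar at the mean of the 3 libraries. Ephb4 and Ephb1 were highest in LEC, Efnb2 and Epha4 in BEC, and Efnb1 in epithelium.

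Free RNA in droplets gives a low count in cells that do not make a gene. Ccl21a and Reln, abundant in LEC, were found in epithelium at 0.887% and 0.743% of their LEC level. Ephb1 in epithelium was at 0.381% of its LEC level, from 5 UMIs. In library 2 it was at 0.917%, against 1.15% for Ccl21a and 0.886% for Reln. In mural cells Ephb1 was at 0.916% of LEC, against 1.57% for Ccl21a and 0.945% for Reln, but all 3 of its UMIs were in library 2, where it was at 3.79% against 1.68% and 1.27%. So few UMIs do not place the mural level above or below that of the other genes. Ephb1 in BEC reached 19.9% of LEC, or 14.9% to 26.1% by library, while Ccl21a and Reln in BEC stayed at 1.24% and 0.609%. What part of the Ephb1 counts in these gates was free RNA was not tested. With every cell thinned to 3000 UMIs, Ephb4 was seen in 37.0% of 18494 LEC (exact 95% binomial interval 36.3 to 37.7), Efnb2 in 23.1% (22.5 to 23.7), Ephb1 in 15.4% (14.9 to 16.0), Efnb1 in 11.6% (11.1 to 12.1) and Epha4 in 0.227% (0.164 to 0.307). Intervals cover counting error only. Unthinned, the shares were 66.8%, 44.3%, 31.8%, 26.1% and 0.596%. In the 3 immune gates together, the thinned shares ran from 0 of 339 cells for Ephb1 and Epha4 to 1.18% for Efnb1. Of LEC, 460 were too shallow to be thinned, and of the immune cells 58.

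LEC were first set against BEC, the lymphatic against the blood endothelium of the same sort. LEC had less Epha4 and more Ephb1, and Efnb1 did not differ. Of all genes tested, 18.9% passed an adjusted p of 0.05 (edgeR's quasi-likelihood test on counts summed per library and gate, Benjamini-Hochberg adjustment), and 3 of the 5 members passed, Ephb4 and Ephb1 higher and Epha4 lower. The median log2 change of the members was 0.048, against 0.089 for all genes tested.

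Ephb1 stood at 64.2, 40.9 and 63.8 CPM in LEC of libraries 1, 2 and 3, against 16.7, 7.43 and 9.49 CPM in BEC. The ranges did not overlap, and the fitted log2 fold change was 2.48 ± 0.29 (SE), 5.58-fold, with an adjusted p of 0.00036 from edgeR. The BEC values rest on 19 UMIs. Epha4 was at 0.626, 1.89 and 0.723 CPM in LEC and at 67.0, 48.3 and 44.3 CPM in BEC. LEC were 51.3-fold lower (log2 -5.68 ± 0.44, edgeR adjusted p 3.9e-05), and every library showed it. Both calls held under each of the 11 other settings run for this comparison.

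Ephb4, the receptor best known for ephrin-B2, had 169, 146 and 142 CPM in LEC and 87.9, 103 and 59.0 CPM in BEC. LEC were higher in each library (log2 0.91 ± 0.22, edgeR adjusted p 0.018). The call depended on the barcodes kept. Without those holding a second gate's markers, LEC averaged 159 CPM and BEC 128 CPM, a log2 change of 0.26 with an adjusted p of 0.42, and it was also lost in thinned cells (0.60, adjusted p 0.067) and without library 1 (0.93, adjusted p 0.090).

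The arterial ligand Efnb2 had 106, 86.2 and 86.8 CPM in LEC and 205, 145 and 98.0 CPM in BEC. LEC were lower in all 3 libraries, by little in library 3, and the change of -0.60 ± 0.21 did not pass (edgeR adjusted p 0.076). Without barcodes holding a second gate's markers the mean was 96.2 CPM in LEC and 198 CPM in BEC, and the log2 change of -1.05 passed, with an adjusted p of 4.9e-07. It also passed without library 3 (-0.85, adjusted p 0.00091), in thinned cells (-1.16) and without the deepest barcodes (-0.74). Efnb1 had 52.1, 40.1 and 43.5 CPM in LEC against 54.4, 34.7 and 45.3 CPM in BEC, a log2 change of 0.048 with an approximate 95% interval from -0.36 to 0.46, and its sign varied between settings.

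Of the 17 other Eph and ephrin genes, 8 passed the filter on low counts and 2 passed the test between LEC and BEC. Of all genes tested, 18.9% passed. Efnb3, the third ephrin-B ligand gene, had 36.0 ± 3.09 CPM in LEC and 7.76 ± 5.86 CPM in BEC (log2 2.46 ± 0.45, edgeR adjusted p 0.0045). Ephb3, a receptor of ephrin-B ligands, had 0.502 ± 0.435 CPM in LEC and 6.57 ± 7.51 CPM in BEC (-3.71 ± 1.13, adjusted p 0.0496). Ephb3 was lower in LEC in 2 of 3 libraries. It was highest in fibroblasts, at 38.5 CPM, and fibroblast markers in BEC summed to 431, 1847 and 5318 CPM in libraries 1, 2 and 3, where Ephb3 in BEC stood at 0, 4.95 and 14.8 CPM. Their part in the Ephb3 result was not tested.

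A list of 25 genes that act with Eph receptors and ephrins had 23 tested. Of these, 7 passed, 3 higher and 4 lower in LEC, beside 18.9% of all genes tested. The largest rise was in Vav3, an exchange factor gene, with 85.0 ± 11.5 CPM in LEC and 10.2 ± 5.90 CPM in BEC (log2 3.30 ± 0.32, edgeR adjusted p 0.00012). Adam10, the protease that sheds ephrins, rose to 316 ± 27.4 CPM in LEC against 131 ± 25.9 CPM in BEC, and Kalrn, an exchange factor downstream of EphB receptors, to 97.2 ± 17.2 against 26.9 ± 5.65 CPM. The largest fall was in Pdgfrb, with 1.30 ± 0.996 CPM in LEC and 65.4 ± 2.66 CPM in BEC. Pdgfrb is a defining gene of mural cells, whose markers the BEC sums also held, and the part of these cells was not tested. Arhgef15, an endothelial exchange factor of the Eph pathway also known as ephexin-5, fell to 56.2 ± 11.1 CPM in LEC against 111 ± 39.6 CPM in BEC.

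Against mural cells, LEC had more Ephb4, Ephb1 and Efnb2 and less Epha4. All 5 members passed the threshold, where 41.1% of all genes tested did, and the median log2 change was 2.52 for the members and 0.17 for all genes. Ephb4 had 169, 146 and 142 CPM in LEC and 26.2, 20.1 and 29.4 CPM in mural cells, 6.02-fold (log2 2.59 ± 0.21, edgeR adjusted p 2.5e-06). Efnb2 rose to 93.0 ± 11.4 CPM in LEC against 0, 20.6 and 14.7 CPM in mural cells (2.52 ± 0.39, adjusted p 0.00033). For Ephb1 the mural gate held 3 UMIs in 248 cells against 8886 UMIs in 18954 LEC, and the test passed (adjusted p 6.0e-06).

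Epha4 fell in LEC, with 1.08 ± 0.703 CPM against 22.9, 21.7 and 9.18 CPM in mural cells, 17.0-fold lower (log2 -4.08 ± 0.59, edgeR adjusted p 0.00022). Efnb1 was at 45.3 ± 6.18 CPM in LEC against 19.6, 20.6 and 34.9 CPM in mural cells (0.79 ± 0.24, adjusted p 0.024). The groups did not overlap, but the Efnb1 call was lost in 4 of 11 settings, with 0.24 and an adjusted p of 0.60 in thinned cells. Gates were drawn again after thinning, which gave 30, 189 and 91 mural cells in place of 25, 157 and 66. Without library 1 it was 0.66 (adjusted p 0.058), without library 2 0.74 (0.11), and with DESeq2 0.80 (0.064).

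Of the 17 other family genes, 9 were tested against mural cells and 8 passed, 3 higher and 5 lower in LEC. The share over all genes tested was 41.1%. Efna1, an ephrin-A ligand of endothelium, had 105 ± 2.33 CPM in LEC and 6.18 ± 1.39 CPM in mural cells, and its receptor gene Epha2 31.6 ± 2.13 against 5.95 ± 2.32 CPM. Efnb3 was also higher, with 36.0 ± 3.09 against 1.47 ± 1.33 CPM. Lower in LEC were Efna4, Efna5, Epha7, Ephb3 and Ephb6, of which Efna5 had 9.40 ± 1.48 CPM in LEC and 23.4 ± 1.68 CPM in mural cells. Efna5 and Ephb3 were highest in fibroblasts, and fibroblast markers in the mural sums, 5 of 6 detected and Pdgfra at 0, totalled 5463, 5155 and 7292 CPM, against 27689, 23921 and 25359 CPM in fibroblasts. In LEC they totalled 64.2, 288 and 118 CPM, and their part in these results was not tested. In the partner list, 11 genes rose and 1 fell of 22 tested, beside the same 41.1% of all genes. The largest rise was in Tek, the angiopoietin receptor gene, with 147 ± 11.5 CPM in LEC and 7.15 ± 9.83 CPM in mural cells. Pdzrn3, a ubiquitin ligase with PDZ domains, fell, with 0.952 ± 0.922 CPM in LEC and 65.4 ± 6.11 CPM in mural cells.

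Epithelium differed from LEC in 71.4% of all genes tested and in all 5 members. Efnb1 fell, with 52.1, 40.1 and 43.5 CPM in LEC against 89.3, 76.6 and 79.7 CPM in epithelium, about the same ratio in each library (log2 -0.99 ± 0.11, edgeR adjusted p 0.0013). Efnb2 rose to 106, 86.2 and 86.8 CPM in LEC against 38.9, 41.2 and 61.8 CPM in epithelium (0.87 ± 0.21, adjusted p 0.017), although without library 1 its adjusted p was 0.055. The ligands thus lay in opposite order in these cells. Ephb4 was 8.55-fold higher in LEC (3.10 ± 0.11, adjusted p 0.00015), and Ephb1 had 4 UMIs or fewer per library in epithelium.

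Epha4 was low in both, with 1.08 ± 0.703 CPM in LEC and 3.25 ± 0.714 CPM in epithelium (log2 -1.80 ± 0.41, edgeR adjusted p 0.013). That call was lost in thinned cells (-1.56, adjusted p 0.17), without library 1 (-1.69, 0.058) and without library 3 (-1.53, 0.072). Among the other family genes, 10 of 17 were tested and 8 passed, where 71.4% of all genes tested did. Efna1, Efna5 and Efnb3 rose and Efna3, Efna4, Epha1, Ephb2 and Ephb3 fell in LEC. Ephb2, known in the crypt base of the mouse intestine, had 0.711 ± 0.723 CPM in LEC and 17.4 ± 5.53 CPM in epithelium, and Epha1 0.926 ± 0.855 against 21.3 ± 2.67 CPM. In the partner list, 15 genes rose and 8 fell of 25, beside the same 71.4% of all genes. Arhgef15 had the largest rise, to 56.2 ± 11.1 CPM in LEC against 0.308 ± 0.329 CPM in epithelium, and Ngef, another ephexin, the largest fall, to 0.561 ± 0.598 against 13.5 ± 0.813 CPM.

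**Figure D2:**
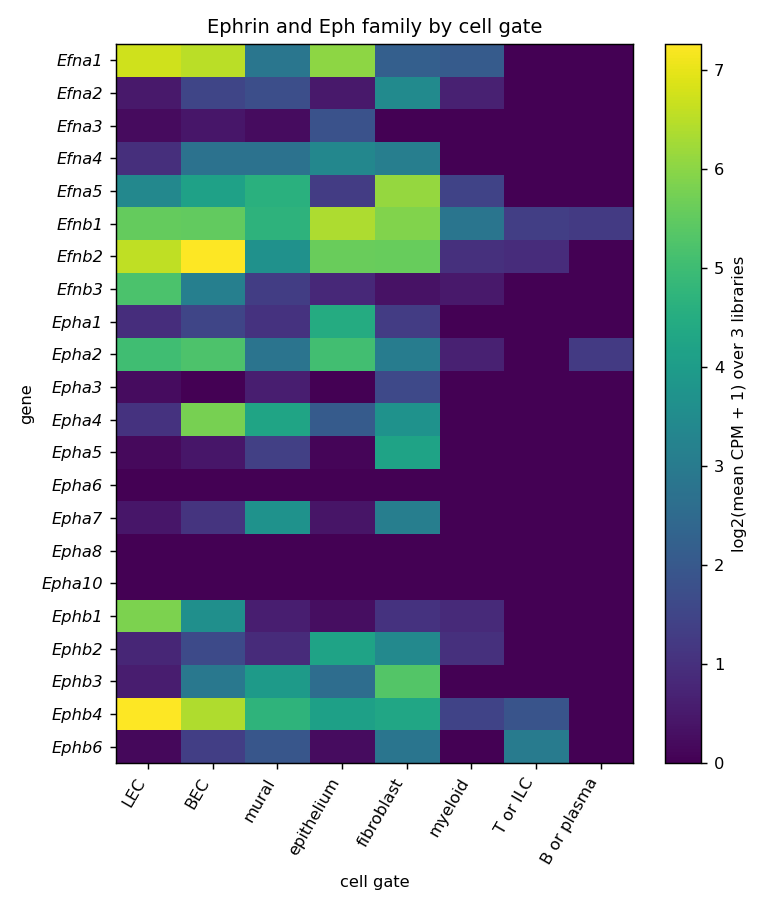
Level of the 5 members and 17 other Eph and ephrin genes (rows) in 8 gates (columns), coloured by log2 of the mean CPM over 3 libraries plus 1. Colours are meant to be read along a row. Efnb3, Ephb1 and Ephb4 were highest in LEC, Ephb3 and Efna5 in fibroblasts, and Epha1 and Ephb2 in epithelium.

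BEC had more Efnb2, Ephb4 and Epha4 than mural cells. Of 5 members, 4 passed the filter and 3 the test, where 20.6% of all genes tested passed. Efnb2 had 205, 145 and 98.0 CPM in BEC and 0, 20.6 and 14.7 CPM in mural cells (log2 3.21 ± 0.54, edgeR adjusted p 0.0065). Ephb4 had 83.3 ± 22.3 CPM in BEC and 25.2 ± 4.70 CPM in mural cells (1.68 ± 0.33, adjusted p 0.012), and Epha4 53.2 ± 12.1 against 17.9 ± 7.59 CPM (1.42 ± 0.35, adjusted p 0.025). No range overlapped. Efnb1, with 44.8 ± 9.89 against 25.1 ± 8.54 CPM, did not pass (0.67, approximate interval 0.052 to 1.28, adjusted p 0.17). That interval is narrower than one drawn from the test would be. Ephb1 was below the filter, with 11.2 ± 4.89 CPM in BEC and 0.516 ± 0.894 CPM in mural cells. Without library 2, which held most mural cells, edgeR called 0 of 6251 genes (1046 at an unadjusted p under 0.05), and DESeq2 over all 3 libraries called Efnb2 and Ephb4 but not Epha4 (adjusted p 0.075).

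Of the other family genes, 3 were tested in that comparison, and Efna1 and Epha2 were higher in BEC, where 20.6% of all genes passed. Efna1 had 90.8 ± 12.9 CPM in BEC and 6.18 ± 1.39 CPM in mural cells, and Epha2 36.5 ± 11.9 against 5.95 ± 2.32 CPM. In the partner list, 8 genes rose and 1 fell of 16 tested, beside the same 20.6%. Arhgef15 had the largest rise, to 111 ± 39.6 CPM in BEC against 2.83 ± 1.13 CPM in mural cells, and Pdzrn3 fell.

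In all BEC, pooled levels of Efnb2 and Epha4 differed between kinds of BEC, and that of Ephb4 did so only with library 2 included. BEC with at least 2 of 7 artery-side genes (such as Gja5 and Sox17) and BEC with at least 2 of 7 vein-side genes (such as Madcam1 and Ackr1), each with more genes of that list than of the other, numbered 112 and 28. The names rest on these lists alone, and the artery side is not shown to be arteries. Gja5 had 34 UMIs in its 112 cells. The blood endothelial gene Plvap had 2074 CPM on the artery side, 3363 CPM on the vein side and 2057 CPM in BEC with neither pattern. Of the 28 vein-side cells, 3, 20 and 5 came from libraries 1, 2 and 3. Those of library 3 held 0 UMIs of the vein-side genes Madcam1 and Sele, and 1010 CPM of the lymphatic marker Ccl21a. With so few cells no test was made. Pooled over libraries, Efnb2 had 174 CPM (exact 95% Poisson interval 150 to 200) on the artery side and 62.7 CPM (39.8 to 94.1) on the vein side. Ephb4 had 65.5 CPM (51.4 to 82.3) on the artery side and 166 CPM (127 to 214) on the vein side. Epha4 lay with Efnb2, at 66.4 CPM (52.2 to 83.2) on the artery side and 16.4 CPM (6.01 to 35.6) on the vein side. Library 2 decided the vein-side levels, holding 50 of 61 Ephb4 UMIs. Without it the vein side rested on 8 cells. Ephb4 then had 68.6 CPM (51.0 to 90.1) on the artery side and 90.8 CPM (45.3 to 163) on the vein side, and these intervals overlapped. Efnb2 then had 152 CPM (125 to 183) and 41.3 CPM (13.4 to 96.4), and Epha4 64.5 CPM (47.6 to 85.5) and 8.26 CPM (0.209 to 46.0), the last from 1 UMI.

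Efnb1 intervals overlapped between the sides, at 46.9 CPM (35.2 to 61.4) on the artery side and 38.2 CPM (20.9 to 64.1) on the vein side, the last 57.8 CPM without library 2. Ephb1 intervals overlapped too, at 8.85 CPM (4.25 to 16.3) and 5.46 CPM (0.661 to 19.7). Without barcodes holding a second gate's markers, 69 artery-side and 22 vein-side cells were left, none of the vein-side cells from library 3 and 19 from library 2. Efnb2 then had 298 CPM (247 to 357) on the artery and 69.2 CPM (41.6 to 108) on the vein side, Epha4 109 CPM (78.6 to 146) and 18.2 CPM (5.91 to 42.5), and Ephb4 119 CPM (87.2 to 158) and 200.2 CPM (151 to 261), where the Ephb4 intervals overlapped. With library 2 left out as well, the vein side held 3 cells. Epha4 intervals then overlapped, at 84.9 to 187 CPM on the artery side and 0 to 90.2 CPM on the vein side. Those of Ephb4 also overlapped, and those of Efnb2 did not, at 202 to 347 CPM and 0.619 to 136 CPM. LEC averaged 152 CPM of Ephb4, inside the vein-side interval from all BEC. Without second-gate barcodes their Ephb4 mean, given above, lay inside the vein-side interval of 151 to 261 CPM and just above the artery-side one. Epha4 at 1.08 CPM in all LEC lay below each of these Epha4 intervals but those of the vein side without library 2. These intervals cover counting error only.

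**Figure D3:**
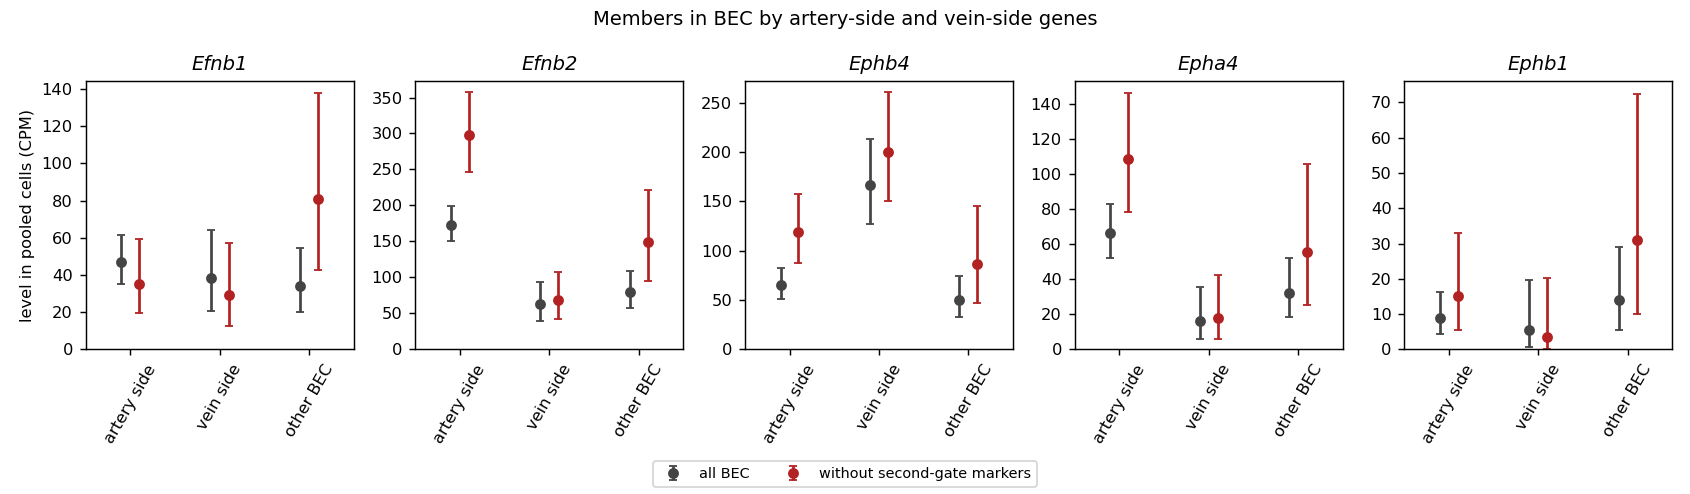
Level of each member in BEC pooled over 3 libraries (vertical axes, CPM) for cells with artery-side genes, with vein-side genes or with neither pattern, from all BEC (grey) and without barcodes holding a second gate's markers (red). Points are pooled levels and bars exact 95% Poisson intervals. Efnb2 and Epha4 were higher on the artery side, and Ephb4 was higher on the vein side in all BEC, where 50 of its 61 UMIs came from library 2.

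Within LEC, the ephrin-B ligands and Ephb1 differed between cells with and without UMIs of Itih5 and of Clca3a1, and Ephb4 was level. Itih5 encodes a heavy chain of the inter-alpha-trypsin inhibitor family, and Clca3a1 a calcium-activated chloride channel regulator known from lymphatic endothelium. Itih5 was detected in 8879 LEC and not in 10075. Clca3a1 was detected in 4864 LEC and not in 14090. Both genes were detected in 1375 LEC, Clca3a1 alone in 3489, Itih5 alone in 7504 and neither in 6586. Itih5-detected LEC were deeper, with medians of 9059, 8082 and 7496 UMIs against 7378, 6746 and 6375 UMIs. Clca3a1-detected LEC had medians of 8079, 7329 and 6916 UMIs against 8182, 7163 and 6767 UMIs.

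By Clca3a1, 14.9% of all genes tested passed and 4 of 5 members did, Efnb2 and Epha4 higher and Efnb1 and Ephb1 lower. Efnb2 had 146, 116 and 119 CPM in Clca3a1-detected LEC and 91.1, 72.1 and 76.9 CPM in LEC without it. No library overlapped, and the log2 change was 0.69 ± 0.035 (edgeR adjusted p 0.00019). Ephb1 had 39.3, 27.0 and 46.4 CPM in Clca3a1-detected LEC and 73.6, 47.3 and 69.2 CPM in LEC without it, a change of -0.74 ± 0.065 (adjusted p 0.00059). Efnb1 had 39.5, 32.0 and 34.7 CPM in Clca3a1-detected LEC and 56.9, 43.9 and 46.3 CPM in the rest (-0.44 ± 0.040, adjusted p 0.00064). Both genes were lower in every library.

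Ephb4 had 166, 145 and 141 CPM in Clca3a1-detected LEC and 170, 146 and 142 CPM in LEC without it. The log2 change was 0.0028 ± 0.032 with an approximate 95% interval from -0.061 to 0.066 (edgeR adjusted p 0.97), so a change of the size seen in Efnb2 lay outside the interval. Epha4 was rare but higher, with 1.99, 3.49 and 1.43 CPM in Clca3a1-detected LEC against 0.111, 1.14 and 0.505 CPM (2.09 ± 0.44, adjusted p 0.022). It was seen in 26, 54 and 33 LEC, of which 22, 31 and 17 had Clca3a1 and 2, 14 and 4 had Plvap, a blood endothelial gene seen in 305, 326 and 336 LEC.

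BEC also carried Clca3a1, at 208 ± 70.6 CPM, and blood endothelial genes moved with this split, most in library 2. There Plvap was at 71.9 CPM in Clca3a1-detected LEC and 9.81 CPM in the others, and Flt1 at 28.1 against 0.970 CPM. In libraries 1 and 3 Plvap was at 8.71 and 11.5 CPM in Clca3a1-detected LEC against 7.73 and 7.13 CPM, and Flt1 at 2.43 and 3.46 CPM against 0.611 and 1.87 CPM. The blood endothelial list, all 7 genes detected, summed to 1695 to 1827 CPM in Clca3a1-detected LEC and 1445 to 1636 CPM in the rest. In LEC without a Plvap UMI the changes were 0.69 for Efnb2, -0.72 for Ephb1 and -0.45 for Efnb1, as large as in all LEC, and 1.83 for Epha4 (edgeR adjusted p 0.048). Without barcodes holding a second gate's markers they were 0.72, -0.72, -0.50 and 2.76, and all 4 passed. The Epha4 call was lost without library 3 (2.38, adjusted p 0.061).

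By Itih5, again 14.9% of all genes tested passed, and 3 of 5 members did, Efnb1 and Ephb1 higher and Efnb2 lower. Efnb2 had 83.2, 67.8 and 70.8 CPM in Itih5-detected LEC and 138, 103 and 104 CPM in LEC without it (log2 -0.68 ± 0.045, edgeR adjusted p 7.7e-06). The groups did not overlap. Efnb1 had 57.0, 44.5 and 49.9 CPM in Itih5-detected LEC and 45.3, 36.2 and 36.7 CPM in the rest (0.31 ± 0.047, adjusted p 0.0017). Ephb1 had 72.0, 45.6 and 73.0 CPM in Itih5-detected LEC and 53.3, 36.6 and 53.8 CPM in the rest (0.35 ± 0.047, adjusted p 0.00081). Both were higher within each library, while the ranges of the groups overlapped across libraries.

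Ephb4 had 148.9 ± 15.3 CPM in Itih5-detected LEC and 155 ± 16.1 CPM in LEC without it (log2 -0.11 ± 0.049, edgeR adjusted p 0.18). Epha4 had 0.842 ± 0.743 against 1.36 ± 0.619 CPM (-0.87 ± 0.32, adjusted p 0.10), and passed in 4 of 11 settings, with -1.85 and an adjusted p of 0.00031 when barcodes holding a second gate's markers were left out. Markers of other cells moved with Itih5 too. The 6 fibroblast markers, all detected, summed to 99.4, 542 and 204 CPM in Itih5-detected LEC and 14.9, 57.8 and 25.1 CPM in the rest, and the 10 mural markers to 378, 1755 and 459 CPM against 218, 476 and 210 CPM. Fibroblasts themselves had 868 CPM of Itih5. Without barcodes holding such markers the log2 changes were -0.66 for Efnb2, 0.30 for Efnb1 and 0.41 for Ephb1, and all 3 passed.

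By Clca3a1 the changes were graded. In LEC with 0, 1, 2 and 3 or more Clca3a1 UMIs, Efnb2 averaged 80.0, 113, 124 and 158 CPM, Efnb1 49.0, 38.1, 34.7 and 30.4 CPM, and Ephb1 63.4, 44.5, 33.1 and 26.5 CPM. Epha4 averaged 0.586, 1.16, 2.04 and 4.99 CPM, and Ephb4 stayed between 150.3 and 153 CPM. Plvap moved with the last step, at 14.4, 233 and 27.3 CPM in LEC of libraries 1, 2 and 3 with 3 or more Clca3a1 UMIs, against 7.73, 9.81 and 7.13 CPM in LEC with none. In LEC without a Plvap UMI, a choice made after the data were seen, Efnb2 averaged 80.5, 114, 125 and 160 CPM over the steps, Efnb1 48.9, 37.9, 34.7 and 29.8 CPM, Ephb1 62.6, 43.7, 32.8 and 27.4 CPM, and Epha4 0.563, 0.999, 2.22 and 3.42 CPM. Over the steps of Itih5, Efnb2 averaged 115, 84.1, 77.1 and 65.0 CPM. Efnb1 was at 39.4 CPM without Itih5 and at 47.4 to 52.5 CPM with it. Ephb1 also made a single step in libraries 1 and 3, with 53.3 and 53.8 CPM without Itih5 and 71.0 to 75.7 CPM with it, and in library 2 it had 36.6, 37.7, 43.5 and 53.1 CPM over the steps. Epha4 averaged 1.36 CPM without Itih5 and 0.708 to 0.921 CPM with it. These steps share the cells of the 2 splits and were not tested separately.

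**Figure D4:**
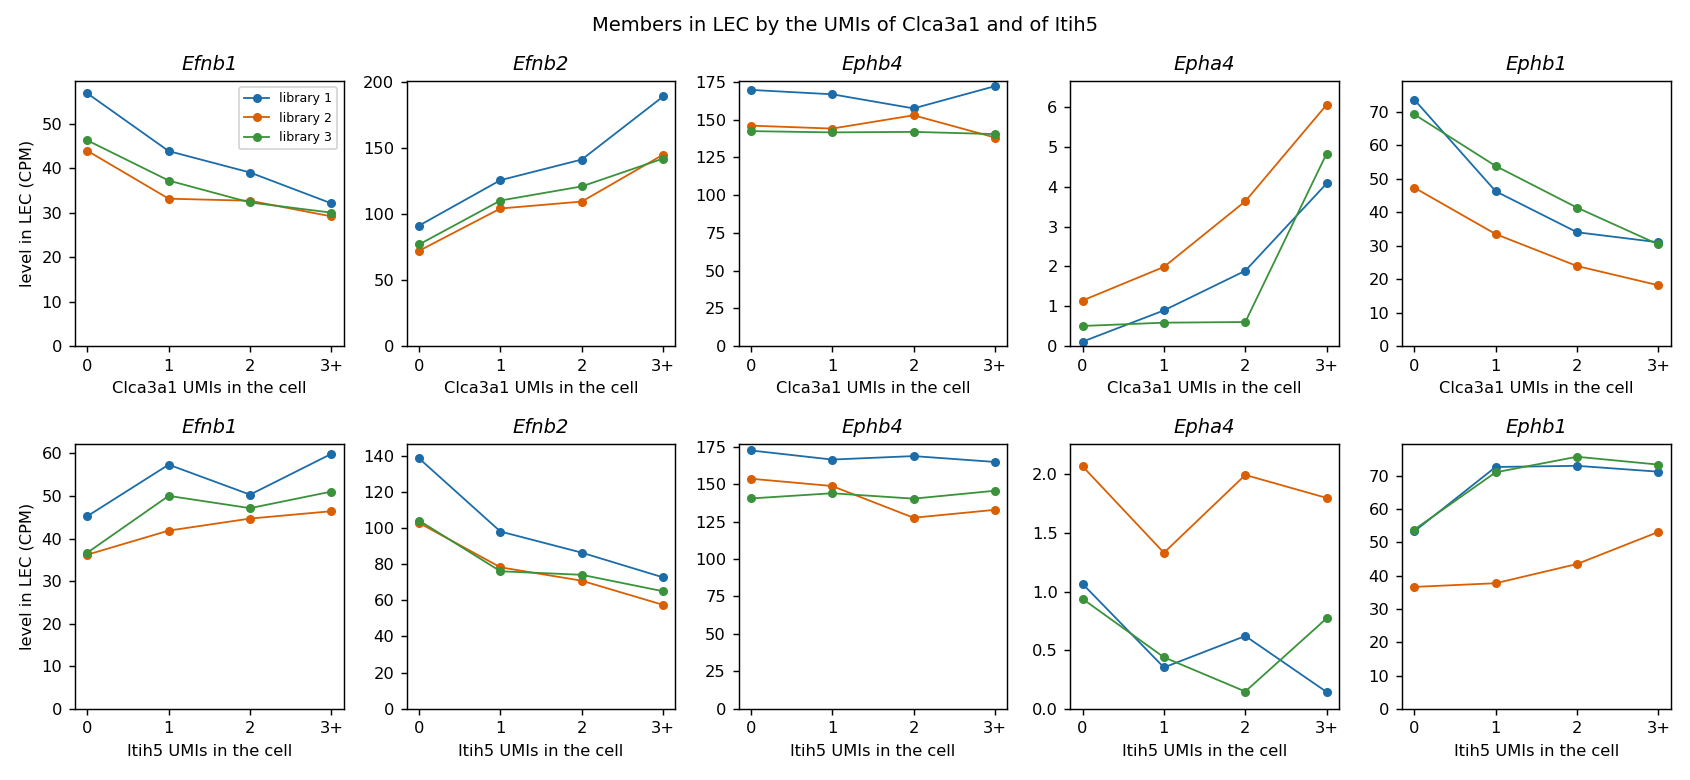
Level of each member in LEC (vertical axes, CPM, from 0) by the number of Clca3a1 UMIs (upper row) or Itih5 UMIs (lower row) in the cell, with 1 line per library. Efnb2 was higher and Efnb1 and Ephb1 lower with more Clca3a1, Efnb2 was lower and Efnb1 and Ephb1 higher in LEC with Itih5 than without, and Ephb4 was flat by Clca3a1.

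LEC with Clca3a1 and no Itih5 were also set directly against LEC with Itih5 and no Clca3a1, an alternative added after the data were seen. Efnb2 had 142 ± 21.2 CPM in the Clca3a1 cells and 67.9 ± 8.03 CPM in the Itih5 cells, a log2 change of 1.11 (edgeR adjusted p 2.2e-05). Ephb1 had 32.5 ± 7.18 against 67.7 ± 14.6 CPM (-1.0, adjusted p 0.00029), and Efnb1 30.7 ± 3.66 against 51.9 ± 6.72 CPM (-0.71, adjusted p 0.00014). Ephb4 was at 152 ± 12.5 against 149.6 ± 13.8 CPM (0.079, adjusted p 0.39), and Epha4 at 2.61 ± 1.17 against 0.618 ± 0.667 CPM (2.34, adjusted p 0.017). Cells with neither gene lay between for Efnb2, at 98.5 ± 18.2 CPM, and cells with both at 100.2 ± 12.6 CPM.

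Of 17 other family genes, 7 were tested in each split, and 3 passed by each, where 14.9% of all genes tested did. Efna5 and Efnb3 moved with Efnb1 and Ephb1. Efnb3 had 28.2 ± 4.81 CPM in Clca3a1-detected LEC and 39.2 ± 2.39 CPM in the rest (log2 -0.46 ± 0.073, edgeR adjusted p 0.0074), and 42.6 ± 3.14 CPM in Itih5-detected LEC against 28.6 ± 1.61 CPM (0.53 ± 0.050, adjusted p 9.3e-05). Efna5 had 5.54 ± 0.971 against 10.9 ± 1.73 CPM by Clca3a1 (-0.95 ± 0.093) and 11.7 ± 1.10 against 6.88 ± 1.5 CPM by Itih5 (0.73 ± 0.094), with adjusted p of 0.00089 and 0.00064. The third gene by Clca3a1 was Epha2, at 25.5 ± 1.14 CPM in Clca3a1-detected LEC and 33.9 ± 3.37 CPM in the rest, and by Itih5 it was Ephb2, with 0.173, 2.59 and 0.617 CPM in Itih5-detected LEC and 0.194, 0.585 and 0.201 CPM in the rest, higher in 2 of 3 libraries. Efna5 was highest in fibroblasts, at 68.6 CPM, and the part of fibroblast RNA in its change by Itih5 was not tested.

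In the partner list, 1 gene rose and 4 fell of 23 tested by Clca3a1, and 6 rose and none fell of 23 by Itih5. Of all genes tested, 14.9% passed by each split. Fyn, a Src-family kinase that acts below Eph receptors, fell to 91.4 ± 13.1 CPM in Clca3a1-detected LEC against 130 ± 18.9 CPM in the rest (log2 -0.48 ± 0.039, edgeR adjusted p 0.00045), the largest fall. Tek rose to 156 ± 13.9 against 144 ± 10.7 CPM (0.13 ± 0.033). By Itih5 the largest rise was in Pdzrn3, with 1.73 ± 1.71 CPM in Itih5-detected LEC and 0.192 ± 0.262 CPM in the rest, and Pdgfrb rose to 2.22 ± 1.68 against 0.381 ± 0.488 CPM. Both were highest in fibroblasts, at 72.5 CPM for Pdzrn3 and 130 CPM for Pdgfrb, and next in mural cells, at 65.4 and 120 CPM. Fibroblast and mural markers moved with this split as given above, and their part in these rises was not tested. The median log2 change was 0.054 for the list and 0.0067 for all genes by Itih5, and -0.083 and 0.0078 by Clca3a1.

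LEC with at least 2 of 5 genes of collecting vessels and valves (Cldn11, Foxc2, Gja4, Itga9 and Gata2) numbered 8835, and LEC with none 2288. The 5 genes averaged a sum of 498 CPM in the first group and 371 CPM in all LEC. A gate this wide cannot show a difference confined to a small number of valve cells. None of the 5 members passed, where 1.35% of all genes tested did. Ephb1 had 57.0 ± 12.8 CPM in valve-gene LEC and 47.1 ± 11.2 CPM in LEC without these genes, higher in 3 of 3 libraries (log2 0.22 ± 0.053, edgeR adjusted p 0.14, unadjusted p 0.0044). The Ephb1 change passed in 1 of 12 other settings, with 0.25 and an adjusted p of 0.038 without a filter beyond 1 UMI, and its adjusted p was 0.078 to 1.0 in the others. Efnb2 had 96.5 ± 10.1 against 91.9 ± 14.1 CPM (0.016, interval -0.091 to 0.12), and Ephb4 152 ± 14.9 against 148.8 ± 18.9 CPM (-0.020, interval -0.12 to 0.083). Efnb1 had a log2 change of -0.0086, and Epha4 had 1.19 ± 0.906 against 0.857 ± 0.719 CPM (0.37, interval -0.57 to 1.30). Valve-gene LEC were deeper, with medians of 8753, 7843 and 7411 UMIs against 6070, 5994 and 5820 UMIs. None of the 6 other family genes tested, and none of 22 partner genes, passed. As a check of tissue handling, LEC above their library's median of 7 immediate early genes, such as Fos and Egr1, were set beside the rest. Efnb2 had 94.0 ± 9.99 CPM above the median and 92.1 ± 12.9 CPM below it, and Efnb1 45.5 ± 8.02 against 45.0 ± 4.28 CPM. Ephb4 had 149.3 ± 12.7 against 155 ± 18.5 CPM and Ephb1 53.7 ± 11.0 against 59.1 ± 16.3 CPM. The SD over libraries does not measure a change within a library, and no test was made. By library, Ephb1 had 62.2, 41.3 and 57.6 CPM above the median and 66.4, 40.5 and 70.6 CPM below it. Ephb4 had 162, 150 and 136 CPM against 176, 141 and 149 CPM. None of Efnb1, Efnb2, Ephb4 and Ephb1 moved the same way in every library. Epha4 had 0.393, 1.72 and 0.588 CPM above the median and 0.872, 2.06 and 0.868 CPM below it, lower above the median in each library.

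**Figure D5:**
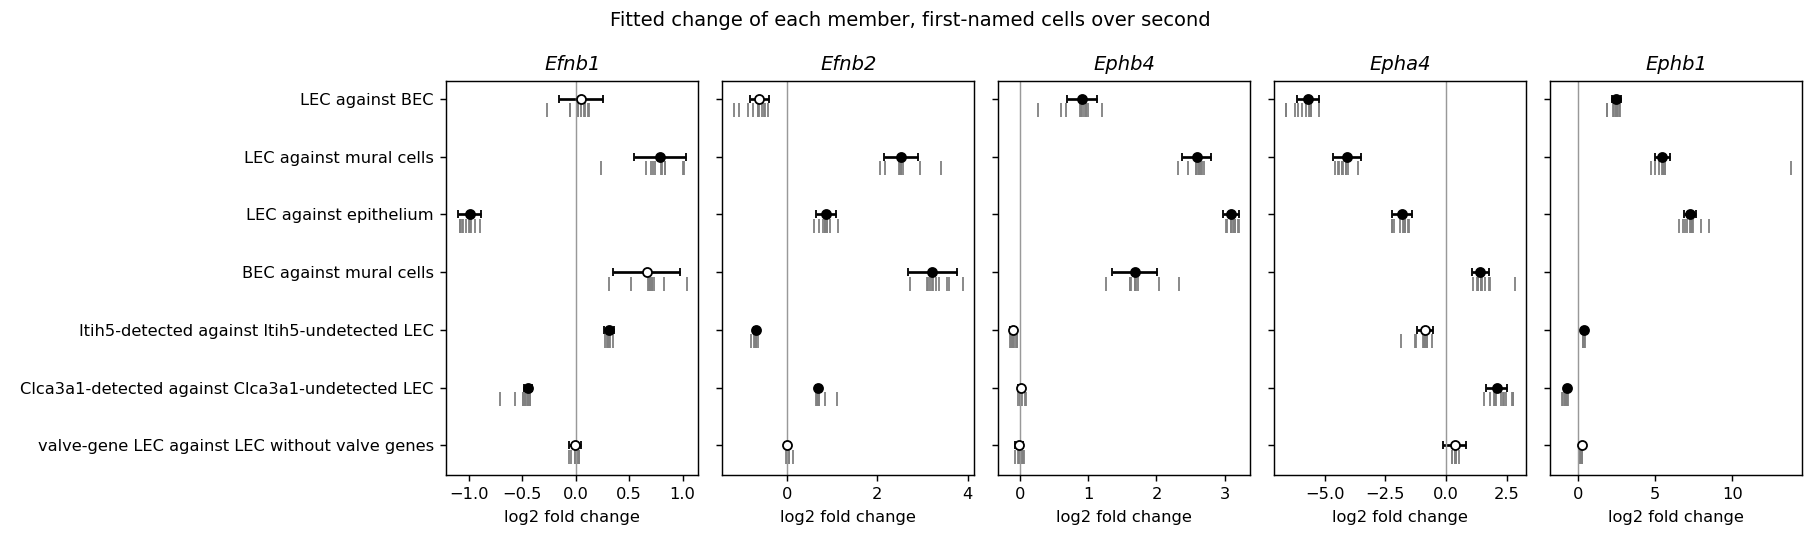
Fitted log2 fold change of each member (horizontal axes, first-named cells over second) in 7 comparisons (rows). Circles are the values with their standard error as bars, filled where the edgeR adjusted p was under 0.05, and grey ticks are the values under other settings. Epha4 was far lower in LEC than in BEC, and Ephb4 lay at 0 in the splits of LEC by Clca3a1 and by valve genes.

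Ligand and receptor were met in the same LEC. In thinned cells, Efnb2 and Ephb4 were detected together in 10.2%, 8.86% and 7.74% of LEC of libraries 1, 2 and 3. Ephb4 was seen in 40.1%, 40.7% and 34.7% of LEC with Efnb2 and in 39.6%, 35.9% and 35.4% of LEC without it. Ephb1 was seen in 15.4%, 9.98% and 15.0% of LEC with Efnb2 and in 16.9%, 12.3% and 17.4% of LEC without it, lower in each library. With Efnb1, it was seen in 18.3%, 12.4% and 17.4% of LEC against 16.2%, 11.7% and 16.8% of LEC without that ligand. Cells of a library are not replicates, so no test was made on cells.

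Over 21 sums of gate and library with at least 20 cells, Ephb1 was most like Ttc9 (Pearson's r of log2(CPM + 1) 0.96) and Nexmif (0.96), and Ephb4 most like Tjp1 (0.95), which encodes a tight junction protein, and Plxna2 (0.94), a semaphorin receptor gene. Epha4 was most like Lama5 (0.96), a laminin chain gene, and Vegfc (0.96), a lymphatic growth factor gene, which had 1.04 CPM in LEC and 77.7 CPM in BEC. Efnb2 was most like Tmem59 (0.94) and Synpo (0.92), and Efnb1 most like Tax1bp3 (0.95) and Golgb1 (0.94). These were the nearest of 11081 genes, and sums of a library share its handling and depth.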

How the data were processed

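UMI counts were measured in 3 droplet libraries of 1 group. The submitters' processing notes name Cell Ranger 6.1.2, bcl2fastq 2.2 and the build mm10, with no annotation release. The deposited matrices hold whole-number counts of UMIs per gene and barcode, not normalised. Depth per library is given above, and it limits BEC and mural values most.

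Barcodes had to show 500 genes or more and no more than 15% mitochondrial UMIs. No doublet caller was run. Barcodes meeting more than 1 of the gates other than LEC and BEC were left out, and barcodes of LEC or BEC with a second gate's markers were left out as an alternative. Mural, epithelial, fibroblast and myeloid gates needed 4 of their markers, T or innate lymphoid and B or plasma gates 3. The lymphatic marker Mmrn1 had no UMIs in any gate, LEC among them, so its row added nothing to the marker sums. Cells were not clustered. Counts were summed per library and gate, and CPM used the total of each sum as its denominator. The quasi-likelihood test of edgeR 4.0.16 (R 4.3.3) was run after filterByExpr and TMM scaling, blocked by library. The pairing comes from the library itself, since its animals and run supply both sums. P-values were adjusted over all genes tested except those that define the gates. Standard errors are the absolute log2 change over the square root of F, and approximate 95% intervals of changes come from them with a normal quantile. Such intervals are narrower than the F test's own, and whether a change passed was read from the test alone. DESeq2 1.42.0, other filters, thinning, other gates and leaving out each library were alternatives. For the tests in thinned cells the gates were drawn again on the thinned counts, so the cells compared changed along with depth. The test was checked on simulated counts.

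The members and lists were chosen with earlier results of these data known. All 5 members were named in each comparison, other family genes where they passed or reached 20 CPM, and from the partner list the counts and the largest fold in each direction. Of the other family genes, Epha5 reached that level in fibroblasts of library 1, with 29.8, 4.32 and 18.5 CPM in libraries 1, 2 and 3. Adam10, Kalrn, Arhgef15 between LEC and BEC, and Pdgfrb by Itih5, were named after their values were seen. Promoters are RefSeq's, and each gene whose window is shown matched 1 entry.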

Additional observations from a re-analysis of the deposited data

How the results depend on the processing

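Between LEC and BEC, mural cells or epithelium, the direction of each called member was kept under every setting run, and the losses of a call are given with each result. BEC against mural cells gave 1565 called genes, 2554 without a filter beyond 1 UMI, 721 in thinned cells, 2597 without second-gate barcodes and 0 to 2339 when a library was left out. LEC against BEC gave 2614 genes, and 1686 to 2670 when a library was left out, fewest without library 1. By Itih5 there were 2088 genes, 1081 with DESeq2, 1391 in thinned cells, 3136 without second-gate barcodes and 1236 to 2111 when a library was left out. By Clca3a1 there were 2047 genes, 1154 with DESeq2 and 1089 to 2071 when a library was left out, with 1306 without library 1. By valve genes there were 177, with 473 without a filter, 326 in thinned cells, 639 without the deepest barcodes, 685 without second-gate barcodes and 63 under stricter detection. With no replicate block, the pairing of sums within a library is lost, and edgeR called 28 genes by Itih5, 23 by Clca3a1 and 0 by valve genes (483 at an unadjusted p under 0.05, and 217 by DESeq2 with the block). All member calls within LEC were then lost, with adjusted p of 0.12 to 0.76 by Itih5 and 0.089 to 0.49 by Clca3a1. With the block removed, no member call between gates changed. The cause was not tested.

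Signs turned only for changes that passed no test. Efnb1 in LEC against BEC was -0.27 in thinned cells, -0.054 without the deepest barcodes and -0.056 without second-gate barcodes. Ephb4 by Clca3a1 was -0.030 without a filter and -0.0070 to 3.2e-05 when a library was left out. By valve genes, Efnb1 was 0.026 without a filter, 0.033 in thinned cells and 0.019 without second-gate barcodes, and Ephb4 was 0.015 without a filter, 0.041 in thinned cells and 0.019 under stricter detection. When a library was left out, Efnb1 ran from -0.046 to 0.030, Efnb2 from -0.023 to 0.057 and Ephb4 from -0.074 to 0.051. Depth limits Epha4 in LEC, with 156 UMIs, and Ephb1 outside LEC, with 19 UMIs in BEC.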
